A study of Mus musculus with 4 samples.

Results

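Gene expression in the colon of old and young mice that ate a high-fat diet was compared on 1 array per age. The old high-fat sample was a pool of RNA from 8 male mice, 21 months old, and the young high-fat sample a pool from 6 males of 4 months. Both pools came from C57BL/6J animals (C57Bl/6 in the sample labels) that had been kept on lab chow, then on a low-fat diet, and then for 2 weeks on a diet that supplied 45% of its energy as fat, most of it palm oil. The low-fat arrays, shown beside them, held pools of 8 old and 6 young males that stayed on the 10% fat diet. The tissue was the scraped colon wall, which holds mucosa and submucosa, and the mice were killed after feeding. Each value is a log2 signal made by the authors with the Robust Multi-array Average method, or the linear signal that is 2 to that power. A gene was included when it had a probe set with a single gene symbol and a linear signal above 50 on the old or the young high-fat array, which held for 12393 of 19938 genes. Differences are given as old minus young, and a gene was counted when its 2 signals differed by more than 2.0-fold (1 on the log2 scale). With 1 pool per group there is no spread between replicates, so no difference has a p-value and each fold compares pools, not mice.

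The colon wall is a sheet of absorptive and mucus-secreting epithelial cells that rests on connective tissue rich in immune cells, with bundles of smooth muscle and the fat of the mesentery beneath. Cells that sense interferon, a family of antiviral and immune signals, switch on a shared set of genes that block virus replication and raise antigen presentation. In that process MHC class II molecules show peptides from outside the cell to helper T cells, and MHC class I molecules show peptides from inside the cell to killer T cells. Plasma cells in the gut wall secrete immunoglobulin A, which the epithelium carries into the lumen.

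The labelled tissue was borne out by its markers. Of 28 colonocyte genes written 28 were above the floor, among them Car1, the carbonic anhydrase of surface colonocytes, with linear signals between 15391 and 16716 on the 4 arrays, and 21 of 24 goblet cell genes were, among them the gel-forming mucin Muc2 between 12169 and 13709. Median log2 signals of the 12393 genes lay between 7.96 and 8.02 on the 4 arrays. The old and young high-fat arrays were the pair that differed most among all 6 pairs, with a standard deviation (SD) of 0.27 log2 over genes against 0.21 to 0.24 for the other pairs, and their Pearson correlation across genes of 0.986 was the lowest (highest 0.992). Genes are not independent replicates. Probe sets to which no gene is assigned had a median log2 signal of 7.20 on the young high-fat array and 6.98 on the old high-fat array, and of 7.01 and 7.19 on the young and old low-fat arrays, so the old low-fat and young high-fat arrays were alike in them. What set the high-fat arrays apart was not tested.

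**Figure D1:**
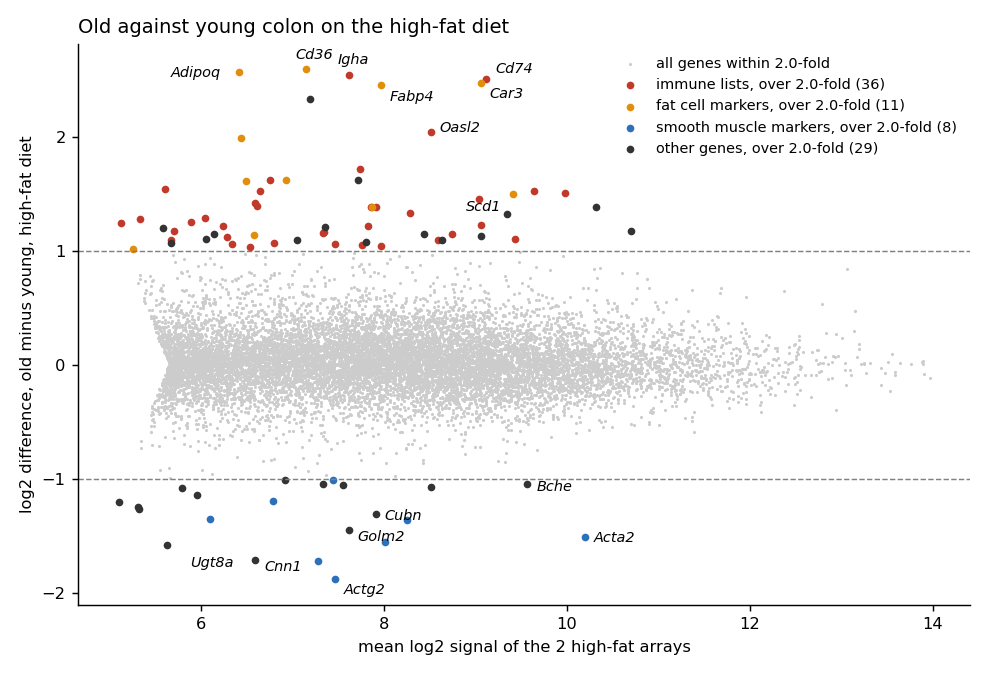
Each point is 1 of 12393 genes, with the mean log2 signal of the old and young high-fat arrays on the horizontal axis and the log2 difference, old minus young, on the vertical axis; dashed lines mark 2.0-fold and coloured points the 84 genes beyond it. Immune genes and fat cell genes make up most points above the upper line, and smooth muscle genes are 8 of the 22 points below the lower line.

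On the high-fat diet 62 genes (0.500% of 12393) were more than 2.0-fold higher in the old than in the young colon and 22 genes (0.178%) were more than 2.0-fold lower. The higher genes were mostly of 2 kinds. Members of the immune lists made up 36 of the 62, led by immunoglobulin A, MHC class II and interferon-stimulated genes, and 11 were fat cell markers, led by Cd36, Adipoq, Car3 and Fabp4. Among the 22 lower genes 8 were smooth muscle markers, led by Actg2, and 12 were in none of the lists. The bulk of genes lay close together, with a median difference of 0.016 log2 and the central 95% between -0.45 and 0.58. At 1.5-fold 307 genes (2.48%) were higher and 122 (0.984%) lower. For 22 of the 84 genes a signal was below 50 on 1 high-fat array, on the young array for 15 higher genes and on the old array for 7 lower ones, and these folds are not exact.

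Because the low-fat arrays are separate pools, they show which of these differences recur between ages in other animals. On the low-fat diet 43 of the 12393 genes (0.347%) were more than 2.0-fold higher in old colon and 6 (0.0484%) lower. Of the 62 genes higher on the high-fat diet 29 were also over 2.0-fold higher on the low-fat diet, 11 were 1.5-fold to 2.0-fold higher, 20 lay within 1.5-fold and 2 were over 1.5-fold the other way. Of the 22 lower genes 3 were over 2.0-fold lower on the low-fat diet as well, 16 lay within 1.5-fold and 3 were over 1.5-fold the other way. Both old arrays lay above both young arrays for 51 of the 62 genes, where 16.3% of all genes did so, and below them for 10 of the 22, where 11.9% of all genes did so; the choice of the 62 and the 22 fixes part of that order. The young high-fat array had the highest signal of the 4 arrays for all 22 lower genes and the lowest for 36 of the 62 higher genes. Among all 12393 genes it had the highest signal for 3062 and the lowest for 3517. With the young low-fat array in its place, 40 of the 62 and 2 of the 22 passed 2.0-fold. Because the young high-fat signal was used to choose these genes, part of both results was fixed by the choice.

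**Figure D2:**
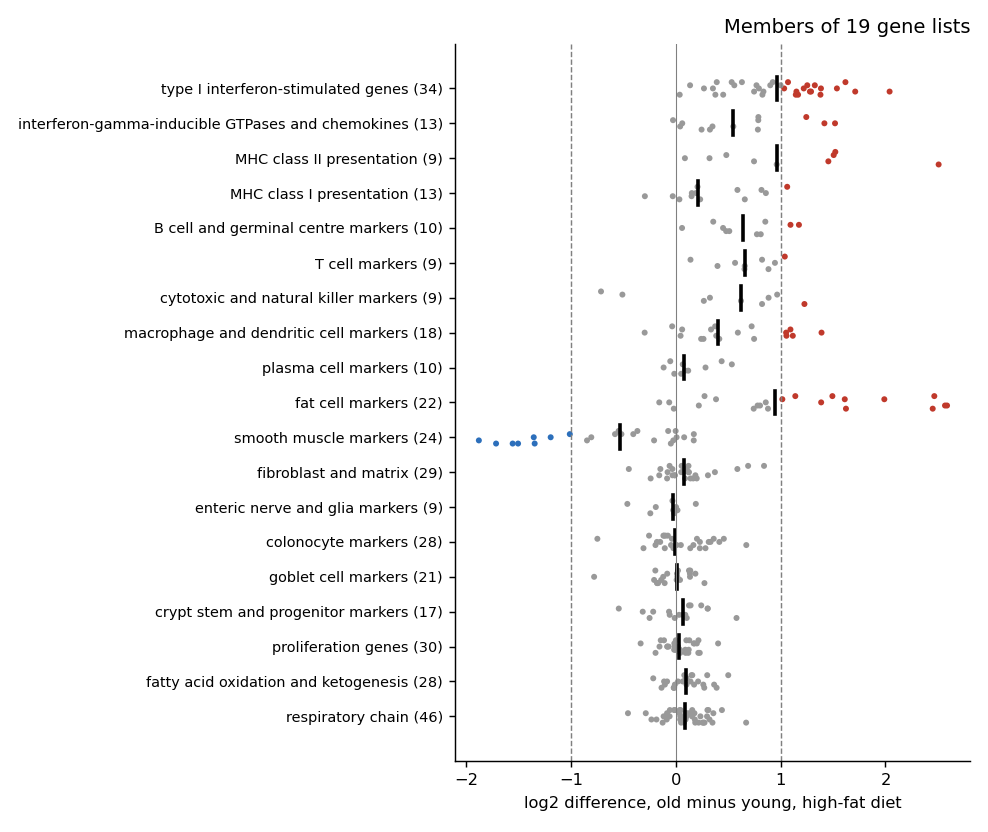
Each row is a gene list, with the number of its members above the floor in brackets; each point is a gene at its log2 difference, old minus young on the high-fat diet, in red or blue beyond 2.0-fold, and the black bar is the median. The interferon-stimulated genes (median 0.96), MHC class II genes (0.96) and fat cell markers (0.95) lie to the right, smooth muscle markers (-0.53) to the left, and the epithelial lists around 0.

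The genes of MHC class II presentation were higher in the old colon throughout the list. All 9 members above the floor were higher on the old high-fat array, 4 of them over 2.0-fold and none lower (0.500% of all genes were higher by that much), with a median difference of 0.96 against 0.016 for all genes. Both old arrays exceeded both young arrays for all 9, where 16.3% of all genes did so. Members that passed the floor only through the old high-fat array could only be higher there. With a signal over 50 on both high-fat arrays 7 members were left, with a median of 1.46. Cd74 encodes the invariant chain that guides class II molecules to the endosome, and its linear signals were 283 in young low-fat, 1081 in old low-fat, 233 in young high-fat and 1324 in old high-fat colon, a 5.69-fold difference on the high-fat diet. H2-Aa and H2-Ab1 encode both chains of the class II molecule I-A. H2-Aa had signals of 429, 1813, 599 and 1702 in that order, 2.84-fold higher on the high-fat diet, and H2-Ab1 had 355, 1197, 469 and 1346, 2.87-fold higher. H2-Eb1, the beta chain of I-E, went from 318 in young to 872 in old high-fat colon (2.74-fold), close to its 306 and 895 on the low-fat diet. In each of these 4 genes the old and young signals did not overlap between diets. H2-DMa, of the complex that loads peptide onto class II molecules, was 0.96 log2 higher, and Ciita, the transactivator of class II genes, 0.75 higher with a young high-fat signal of 34.2, below the floor. The protease gene Ctss, which trims the invariant chain, was within 0.09.

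The promoters of H2-Aa and H2-Eb1 are shown because each holds the Y box of class II promoters, one of the elements through which Ciita and its partners are known to act. The 250 bases before the annotated start are given 5′ to 3′ on the strand of the gene, from RefSeq on mouse build GRCm38.p6, with the letters CTGATTGG in capitals. H2-Aa lies on the minus strand (chr17:34287824-34288073) with the motif 51 to 44 bases before the start, and H2-Eb1 on the plus strand (chr17:34305617-34305866) with the motif 62 to 55 bases before it.
H2-Aa: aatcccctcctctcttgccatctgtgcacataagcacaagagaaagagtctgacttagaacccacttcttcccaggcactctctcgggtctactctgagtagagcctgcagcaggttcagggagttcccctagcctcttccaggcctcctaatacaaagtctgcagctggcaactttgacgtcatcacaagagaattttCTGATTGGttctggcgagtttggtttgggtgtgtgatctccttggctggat
H2-Eb1: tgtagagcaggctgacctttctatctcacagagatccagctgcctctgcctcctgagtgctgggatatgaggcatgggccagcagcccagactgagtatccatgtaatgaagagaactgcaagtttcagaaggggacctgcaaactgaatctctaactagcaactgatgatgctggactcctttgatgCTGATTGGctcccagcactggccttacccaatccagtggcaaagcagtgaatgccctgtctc

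Interferon-stimulated genes were the list with most members over 2.0-fold. Of 34 type I interferon-stimulated genes above the floor 16 were over 2.0-fold and 25 over 1.5-fold higher, and none was lower. Of all genes 0.500% were over 2.0-fold and 2.48% over 1.5-fold higher. The list median was 0.96 on the high-fat and 0.71 on the low-fat diet. Every one of the 34 was higher on both old arrays than on both young arrays, where 16.3% of all genes were. Members that passed the floor only through the old high-fat array could only be higher there. With a signal over 50 on both high-fat arrays 29 members were left, with a median of 0.84. Oasl2, a relative of the antiviral 2'-5' oligoadenylate synthetases, had signals of 174 and 579 in young and old low-fat and 179 and 738 in young and old high-fat colon, a 4.11-fold difference on the high-fat diet. Rtp4, a chaperone of receptors that is induced by interferon, followed with 107 and 382 on the low-fat and 118 and 387 on the high-fat diet (3.28-fold). In both genes the young signals lay close to each other, as did the old ones.

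The 2'-5' oligoadenylate synthetases, which make the messenger that activates RNA-degrading RNase L, were higher as a family. Oas3 was 3.07-fold higher, from 61.5 to 189, Oas1a 2.61-fold, from 149 to 389, and Oas2 2.38-fold, from 38.3 to 91.3. The Ifit genes, whose products bind foreign RNA, had folds of 2.43 for Ifit2, 2.33 for Ifit3 and 2.21 for Ifit1, with young signals of Ifit2 (25.8) and Ifit3 (49.6) below the floor. The Oas genes are close relatives that lie near each other, and the same holds for the Ifit genes. Within each family probes of one gene may catch the transcript of another. Sensors of viral RNA were among the higher genes too, with Ddx60 2.51-fold and Dhx58 2.10-fold. Slfn5 (1.54 log2), the ubiquitin ligase genes Trim30a (1.38) and Herc6 (1.15), Usp18 (1.29), which removes the interferon-induced ubiquitin-like protein ISG15, Rsad2 (1.17), the antiviral enzyme viperin, and Xaf1 (1.03) complete the 16. Irf7 and Stat2, transcription factors of the interferon response, were 0.90 and 0.92 higher. Stat2 differed by 0.002 on the low-fat diet, where its signals were 250 in both ages. At the lower end of the list stood Isg20 (0.036) and Ifi35 (0.14).

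A motif for interferon-induced transcription was looked for in the promoters of these genes, and 3 are shown for their matches. The interferon-stimulated response element was taken as GAAA, any 2 bases and GAAA on either strand, which is in capitals below. The sequences are the 250 bases before the RefSeq start on GRCm38.p6, 5′ to 3′ on the strand of the gene, for Oas3 on the minus strand (chr5:120777660-120777909), Ddx60 on the plus strand (chr8:61927837-61928086) and Ifit1 on the plus strand (chr19:34640639-34640888). Oas3 has 1 match, while Ddx60 and Ifit1 have 2 each. Those of Ifit1 read as the reverse complement.
Oas3: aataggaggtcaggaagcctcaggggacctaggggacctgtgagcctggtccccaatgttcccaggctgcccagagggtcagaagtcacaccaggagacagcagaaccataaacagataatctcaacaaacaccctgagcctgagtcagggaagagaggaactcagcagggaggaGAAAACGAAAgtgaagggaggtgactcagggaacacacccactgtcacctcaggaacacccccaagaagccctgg
Ddx60: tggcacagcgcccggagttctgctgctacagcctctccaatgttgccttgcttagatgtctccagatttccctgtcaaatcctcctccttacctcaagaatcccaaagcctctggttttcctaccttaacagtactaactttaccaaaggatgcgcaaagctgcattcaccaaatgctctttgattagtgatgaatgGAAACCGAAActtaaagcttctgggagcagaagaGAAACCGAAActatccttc
Ifit1: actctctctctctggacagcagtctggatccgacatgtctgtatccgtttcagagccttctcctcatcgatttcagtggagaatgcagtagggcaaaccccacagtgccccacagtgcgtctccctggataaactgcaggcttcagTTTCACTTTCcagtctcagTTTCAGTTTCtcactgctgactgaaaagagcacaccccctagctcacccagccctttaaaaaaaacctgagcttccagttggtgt

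Matches to this element were frequent among the higher genes. RefSeq promoter windows, from 250 bases before to 50 after a start, were matched by symbol to 38 of the 62 higher and 14 of the 22 lower genes. The element was present in 11 of the 38 (28.9%), in none of the 14, in 3.99% of all 27025 genes of the promoter table and in 3.50% of the 9894 genes above the floor that have a window. The 11 were Cybb, Ddx60, Gbp3, Gm12250, Ifit1, Ifit3, Oas1a, Oas3, Rsad2, Slfn5 and Trim30a. Among the interferon-stimulated genes above the floor 12 of 26 (46.2%) held it, whether or not they passed 2.0-fold. The Y box was found in 3 of 6 MHC class II genes and in 5 of the 38 higher genes (13.2%), among them Tap1 and Cd36, against 6.11% of the 9894 and 4.70% of the promoter table. The CArG box, the site of serum response factor in smooth muscle promoters, was present in 3 of 21 smooth muscle genes (14.3%), in 1 of the 14 lower genes, Myl9, in none of the 38 higher genes, in 1.65% of the 9894 and in 1.81% of the promoter table. A match to one of the 3 motifs cannot be a match to another. A match is a stretch of letters in a window and says nothing of binding in these samples.

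**Figure D3:**
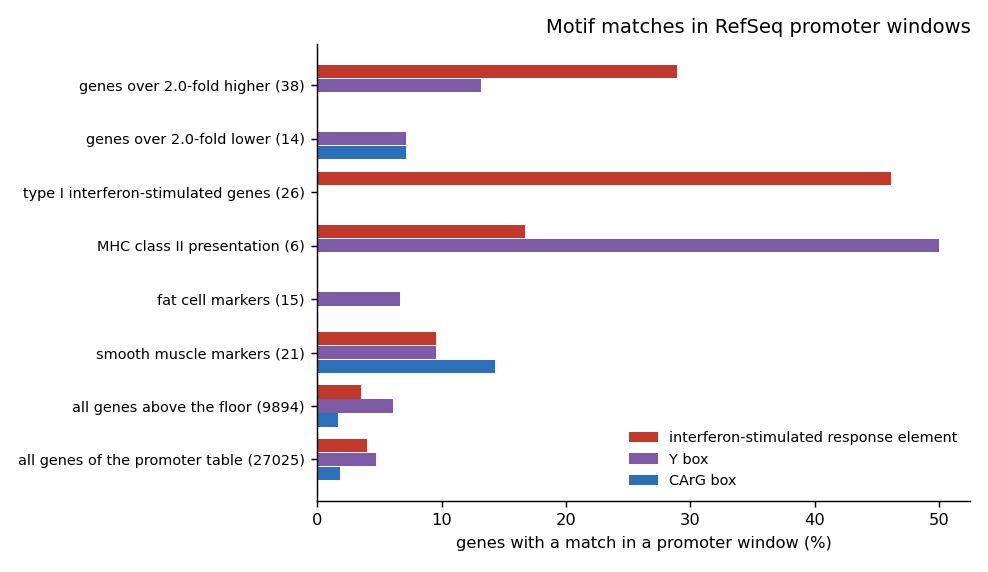
Bars give the percentage of genes with at least 1 match to each of 3 motifs in a RefSeq promoter window; numbers in brackets are the genes of the set with a window. The interferon-stimulated response element reaches 28.9% in the higher genes and 46.2% in the interferon-stimulated list, against 3.99% of the promoter table.

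Genes induced by interferon-gamma, the interferon of T cells and natural killer cells, were higher in part. Of 13 GTPases, chemokines and regulators above the floor 3 were over 2.0-fold higher and none lower, with a median of 0.55. Of all genes 0.500% were higher by that much. The 3 were the guanylate-binding protein gene Gbp3, from 58.9 in young to 157 in old high-fat colon, and the immunity-related GTPases Gm12250, from 58.8 to 169, and Iigp1, from 22.6 to 53.6. All 3 were also over 2.0-fold higher on the low-fat diet. The young high-fat signal of Iigp1 was below the floor, so its fold is not exact. Gbp4, Gbp7 and Gbp8 were 0.78 to 0.79 higher, whereas Gbp9 (0.041) and Ido1 (-0.027), an enzyme of tryptophan breakdown, were near 0. Guanylate-binding proteins are a family of similar genes and their probes may cross-hybridise.

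For MHC class I the difference was smaller, with 1 of 13 genes over 2.0-fold higher (0.500% of all genes were) and a median of 0.21. That gene was Tap1, a subunit of the peptide transporter, with 122 in young and 254 in old high-fat colon (2.09-fold). The interferon-inducible proteasome subunits Psmb8 and Psmb9 were 0.86 and 0.59 higher, and Tap2 0.66, while the light chain gene B2m was 0.23 higher. Erap1, a peptide-trimming protease, was 0.30 log2 lower in the old colon.

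Antibody genes were among the highest, whereas differences of other plasma cell genes were smaller. Igha, the constant region of immunoglobulin A, had linear signals of 93.0 and 775 in young and old low-fat and 81.2 and 473 in young and old high-fat colon, 5.82-fold higher on the high-fat diet, and 1.97 log2 higher by its second probe set. The light chain segment Igkv9-120 was 5.04-fold higher (65.1 to 328) and Igkv10-96 2.13-fold (90.5 to 193). All 7 immunoglobulin genes above the floor were higher in the old high-fat colon, with a median of 0.79. Igkv4-91, the gene at that median, and Igkv6-20 passed the floor only through the old high-fat array and could only be higher there. The floor thus fixes part of this count and median. The segments also resemble each other and a probe set may report several. Jchain, the chain that links immunoglobulin A molecules, was 2.15-fold higher, from 469 to 1009. The old arrays lay above the young ones for each of these genes on both diets. Of 10 plasma cell markers none passed 2.0-fold either way, 7 were higher and 3 lower, and their median was 0.077. Both old arrays lay above both young arrays for 5 of the 10 and below them for 0, against 16.3% and 11.9% of all genes. Mzb1, a chaperone for antibody assembly, stood highest at 0.53, and Xbp1, the transcription factor of secretory cells, differed by -0.054. Pigr, the receptor that carries immunoglobulin A across the epithelium, was 0.28 higher.

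Markers of lymphocytes and of macrophages were higher by smaller amounts. In bulk tissue more cells of a type and more RNA per cell cannot be told apart. Of all genes 0.500% were over 2.0-fold higher and 0.178% over 2.0-fold lower. Of 10 B cell genes 2 were over 2.0-fold higher, Ms4a1 (CD20) from 34.9 to 74.6 and Cd72 from 34.5 to 78.0, both from young signals below the floor, and the median of the list was 0.64. Neither passed when the young low-fat array took the place of the young high-fat array. Cxcl13, the chemokine that draws B cells into follicles, was 2.33-fold higher (149 to 346) after 151 and 431 on the low-fat diet. T cell markers had a median of 0.66 with all 9 positive; Cd8a was the one over 2.0-fold (175 to 359), followed by Itgae (0.95), an integrin of lymphocytes within the epithelium, and Cd8b1 (0.88). With an intensity trend subtracted Cd8a no longer passed. Among 9 cytotoxic and natural killer genes Ccl5, a chemokine of killer cells, was 2.34-fold higher (350 to 819), and the granzymes Gzmb and Gzma were 0.97 and 0.88 higher. Klrd1 and Xcl1 pointed the other way, at -0.71 and -0.51, with old high-fat signals of 45.7 and 48.1 below the floor.

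Among 18 macrophage and dendritic cell genes above the floor 5 were over 2.0-fold higher and none lower, and the median was 0.40. Of all genes 0.500% were higher by that much. Cybb, a subunit of the oxidase that makes superoxide in phagocytes, went from 60.1 to 158 (2.62-fold), and Ms4a6b from 52.6 to 114. The lysozyme genes Lyz2 and Lyz1 were 2.13-fold and 2.07-fold higher, from 265 to 564 and from 151 to 312; they are neighbours of near-identical sequence and cannot be separated with confidence. Ly86, which pairs with a relative of the Toll-like receptors on B cells and macrophages, was 2.08-fold higher. Members such as Cx3cr1 (0.045), Mertk (-0.036) and Tyrobp (-0.30) did not share the direction or size. The complement genes Cfb, C2 and C4b were 0.76, 0.73 and 0.67 higher, of which Cfb was 0.43 lower on the low-fat diet. No member of the cytokine list passed 2.0-fold, with Il18 (0.57) and Tnf (0.46) at its upper end.

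Fat cell genes were the other large group among the higher genes, and unlike the leading immune lists they had a median near 0 on the low-fat diet. Of 22 fat cell markers above the floor 11 were over 2.0-fold higher and none lower. Of all genes 0.500% were higher and 0.178% lower by that much. The median of the markers was 0.95 on the high-fat and -0.065 on the low-fat diet. Cd36, which takes up long-chain fatty acids, had signals of 104 and 165 in young and old low-fat and 57.6 and 346 in young and old high-fat colon, the largest fold of all genes (6.01). The hormone adiponectin, Adipoq, went from 35.0 to 208 (5.93-fold), with 81.9 and 94.1 on the low-fat diet. In both genes the low-fat signals lay between the high-fat ones. Car3, a carbonic anhydrase abundant in fat, was 5.53-fold higher (226 to 1250) and Fabp4, the fatty acid carrier of adipocytes, 5.47-fold (107 to 584). Cyp2e1, which oxidises ethanol, was 3.97-fold higher (43.5 to 173), Ccdc80, a matrix protein, 3.08-fold (69.1 to 213), and the hormone resistin, Retn, 3.06-fold (51.3 to 157).

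Enzymes and coat proteins of fat storage followed. Scd1, the desaturase that makes oleic acid, was 2.82-fold higher (406 to 1142), Lpl, the lipase that frees fatty acids from lipoproteins, 2.61-fold (144 to 376), the lipid droplet protein Plin1 2.20-fold (64.5 to 142) and the glycerol channel Aqp7 2.02-fold (26.7 to 54.1). Cidec, Lipe, Trarg1 and Plin4 were 0.74 to 0.86 higher, whereas Pparg, the master regulator of fat cells, differed by -0.064. Pparg and Scd1 are expressed by colonic epithelium as well. The young high-fat array had the lowest of 4 signals for 9 of the 11 genes and the old high-fat array the highest for 10. The choice of the 11 by these 2 signals fixes part of that order. Among the 22 markers the counts were 15 and 17, and among all 12393 genes 3517 and 3613. Summed over the 26 measured markers, those below the floor included, the linear signal was 5671 on the young high-fat, 7016 on the young low-fat, 7235 on the old low-fat and 9932 on the old high-fat array. Adipoq, a defining marker, was below the floor on the young high-fat array (35.0) and above it on the other 3. Cyp2e1 (43.5), Aqp7 (26.7), Trarg1 (44.6) and Thrsp (48.4) were also below the floor on the young high-fat array. These genes and Adipoq entered only through the old high-fat array and could only be higher there. With the young low-fat array in place of the young high-fat array 5 of the 22 passed 2.0-fold and the median was 0.58. The part that the amount of fat tissue in the scrapings has in these values was not tested.

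**Figure D4:**
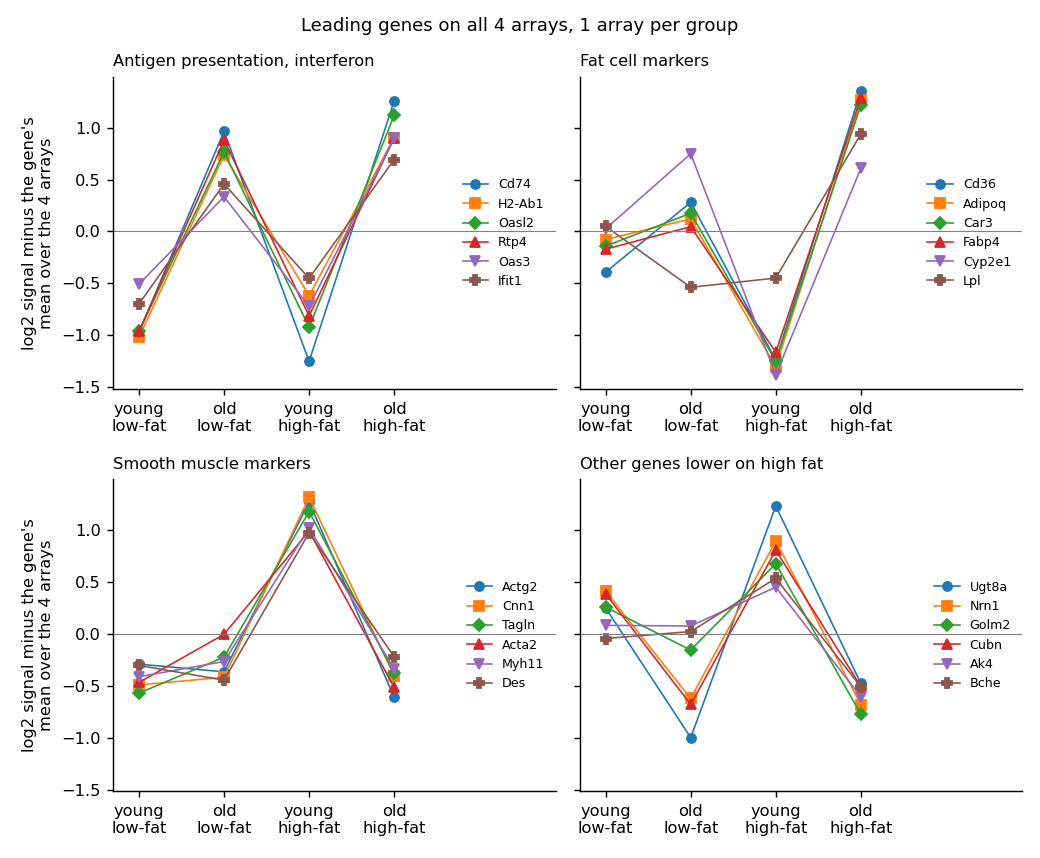
Log2 signals of 24 genes on the 4 arrays, each minus the gene's mean over the arrays, with 1 array per group and therefore no error bars. Antigen presentation and interferon genes are high on both old arrays, fat cell markers run from their lowest in young to their highest in old high-fat colon in most genes, and smooth muscle markers peak on the young high-fat array.

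Smooth muscle genes were lower in the old high-fat colon, and nearly all of the difference lay in the young high-fat array. Of 24 markers above the floor 8 were over 2.0-fold lower and none higher (0.178% of all genes were lower by that much), with a median of -0.53 on the high-fat and 0.039 on the low-fat diet. Actg2, the actin of visceral smooth muscle, had signals of 115, 109 and 92.0 on the young low-fat, old low-fat and old high-fat arrays and of 339 on the young high-fat array, a difference of -1.88 log2 between the ages on the high-fat diet. Cnn1, calponin, had 80.4, 84.6 and 85.6 on those 3 arrays and 281 on the young high-fat array (-1.72), and Tagln, transgelin, 131, 167 and 150 against 441 (-1.56). For Acta2, the actin of vascular and visceral smooth muscle, the signals were 718, 989 and 694 against 1972 (-1.51). The young high-fat array thus stood alone and the other arrays lay near each other.

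Myosin heavy chain Myh11 (-1.36), Pgm5 (-1.35), a protein of muscle attachment sites, the intermediate filament desmin, Des (-1.20), and the myosin light chain Myl9 (-1.01) had the same pattern. The young high-fat array was the highest of 4 for all 8 genes and for 17 of the 24 markers, against 3062 of all 12393 genes. The choice of the 8 by its signal fixes part of their order. Csrp1 (-0.85) and Tpm2 (-0.81) came next, while Vcl (0.17), Smtn (0.007) and Lmod1 (-0.025) were close to 0. Summed over the 29 measured markers, those below the floor included, the linear signal was 9020 on the young high-fat array and 5697 to 6106 on the other 3. With the young low-fat array in place of the young high-fat array none of the 8 passed, Cnn1, Des, Myh11 and Tagln had the opposite sign, Pgm5 was below the floor, and the median was -0.020; with the mean of both young arrays 1 passed and the median was -0.24. The lists of other cells of the muscle layer were short and held genes of either direction. Among 5 genes of the interstitial cells of Cajal, the pacemaker cells, Gja1 was 0.93 lower. Thbs4 (1171 to 2049) and Ano1 (517 to 835) were 0.81 and 0.69 higher. Which cells of the scrapings gave the signals of these genes was not tested. Of 24 enteric nerve and glia genes measured 9 were above the floor, 6 of them lower and 3 higher. Their median was -0.025, with a range from -0.46 for Uchl1 (76.8 to 55.7) to 0.19. Whether the depth of scraping differed between pools was not tested.

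Of the 14 higher genes in none of the lists, several had the profile of the fat cell genes over the arrays. The mitochondrial enzyme pyruvate carboxylase, Pcx, had signals of 447 and 340 in young and old low-fat and 232 and 514 in young and old high-fat colon (2.21-fold). Aldh1l1, a folate enzyme, was 2.13-fold higher (271 to 577) and Car5b, a mitochondrial carbonic anhydrase, 2.29-fold (31.7 to 72.6), with low-fat differences of -0.16 and 0.24. Transferrin, Trf, the iron carrier of plasma and a member of the liver list, was 3.08-fold higher (120 to 369) with 223 and 220 on the low-fat diet. By contrast Vsig2, an immunoglobulin-domain membrane protein, was higher on both diets, with 410 and 964 on the low-fat and 411 and 1024 on the high-fat diet (2.49-fold), and Serpina3n, a protease inhibitor of inflammation, was 2.15-fold higher. Wdfy4, which takes part in cross-presentation by dendritic cells, was 2.22-fold higher by 1 probe set and 0.34 log2 by another. Npr3, the clearance receptor of natriuretic peptides, and Tsr3, an enzyme of ribosomal RNA maturation, were 2.10-fold and 2.11-fold higher. Another probe set of Tsr3 was 0.58 log2 higher. Short structural RNAs were among the higher genes as well: the Y RNA Rny3 (2.60-fold, 793 to 2066), Snord15a (2.30-fold), Rmrp (2.26-fold) and Snord49b (2.19-fold). Apart from Rny3, Trf and Tsr3, these genes were named after their values were seen.

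Small RNA genes, with microRNA host genes included, were more scattered than other genes. Among 136 of them above the floor the SD of the difference was 0.41 log2, against 0.27 for all genes, and the median was -0.082. Of the 136, 4 were over 2.0-fold higher and 2 lower, where 0.500% and 0.178% of all genes were. The 2 lower were the precursor genes of the microRNAs Mir151 (61.7 in young, 25.7 in old high-fat colon) and Mir687 (80.2 and 37.9). Their old high-fat signals were below the floor. Both had the opposite order on the low-fat diet, 33.1 and 51.9 for Mir151 and 46.7 and 71.3 for Mir687. The array labels total RNA and the probe sets do not separate a mature microRNA from its precursor.

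Among the lower genes that are not of muscle, 3 were over 2.0-fold lower on both diets. Ugt8a, which makes galactosylceramide, had signals of 87.9 and 37.0 in young and old low-fat and 174 and 53.1 in young and old high-fat colon (3.27-fold lower). Cubn encodes cubilin, the receptor that takes up intrinsic factor with vitamin B12, and its signals were 282 and 135 on the low-fat and 378 and 152 on the high-fat diet (2.48-fold lower). Amn, the partner that anchors cubilin in the membrane, differed by -0.082 on the high-fat diet. Nrn1, neuritin, a membrane protein known from neurons, had 60.8 and 29.7 on the low-fat and 85.1 and 28.5 on the high-fat diet (2.98-fold lower), so that both old signals were below the floor. In these 3 genes both old arrays lay below both young arrays.

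Most of the remaining lower genes lay within 1.5-fold on the low-fat diet. Golm2, a Golgi membrane protein, went from 323 in young to 118 in old high-fat colon (2.73-fold lower), with 242 and 182 on the low-fat diet. Bche, the butyrylcholinesterase that splits choline esters, had 1090 and 528 on the high-fat and 729 and 764 on the low-fat diet. Mal, a protein of apical transport, was 2.10-fold lower (530 to 252) and Depp1 2.06-fold (230 to 112). Ak4, a mitochondrial adenylate kinase, was 2.08-fold lower by 1 probe set and 0.61 log2 lower by another. Itpripl2 was 2.02-fold lower by 1 probe set and 0.63 log2 lower by another. For the receptor gene Gpr21 (91.8 to 41.7), Nudt10 (61.1 to 25.8) and 1700001J11Rik (52.0 to 22.6) the old signal was below the floor, and the folds are not exact.

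Lists of epithelial cells had few wide differences. Of all 47 lists, those of other kinds included, 30 had no member over 2.0-fold in either direction, with medians between -0.18 and 0.42. Among all genes 0.500% were higher and 0.178% lower by that much, so a short list without such a member is common. The medians were -0.008 for 28 colonocyte genes, 0.007 for 21 goblet cell genes, 0.064 for 17 crypt stem and progenitor genes, 0.030 for 30 proliferation genes and 0.092 for 24 junction genes. Enteroendocrine and tuft cell genes had a median of -0.087 on the high-fat and -0.13 on the low-fat diet, with 15 of 22 lower in the old high-fat colon and both old arrays below both young arrays for 10 of 22, where 11.9% of all genes were. The members farthest from 0 were the bicarbonate transporter Slc4a4 (-0.75) and the water channel Aqp8 (0.67) in colonocytes, the mucin glycosyltransferase B3gnt6 (-0.78) in goblet cells, and Ephb3 (0.58) and Cd44 (-0.55) in crypts. Among 28 genes of fatty acid oxidation and ketogenesis the median was 0.097 and the widest difference that of the droplet protein Plin2 (0.50). Fatty acid synthesis (median 0.26 over 17 genes) had Scd1 as its single gene over 2.0-fold, and fatty acid uptake and esterification (0.22 over 21) had Cd36; both are also on the fat cell list. The bile acid binding protein Fabp6 was 0.83 higher, from 674 to 1202. Among targets of nuclear receptors Cyp3a25 was 0.97 higher, and of the sterol exporters Abcg5 and Abcg8 the differences were 0.69 and 0.56. Of 48 xenobiotic enzymes Ugt8a was the one over 2.0-fold. The respiratory chain (median 0.086 over 46 genes), ribosomal proteins (0.027 over 34) and clock genes (-0.12 over 16) had no member over 2.0-fold; in the clock list 11 of 16 were lower in the old colon, with Ciart (-0.57) and Per3 (-0.53) farthest.

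Several of the counted genes lie near each other in the genome. Of the 74 that could be placed in the RefSeq gene order of GRCm38.p6, 16 lay in 6 clusters. In a cluster each counted gene was at most 5 places in that order from the next counted gene. The clusters were Tap1 with H2-Ab1, H2-Aa and H2-Eb1, Ifit1, Ifit2 and Ifit3 with Acta2, Oas2 with Oas3, Lyz1 with Lyz2, Adipoq with Rtp4, and Ly86 with Nrn1. In the clusters of Acta2 and of Nrn1 neighbours had opposite signs. As a measure of probe error, the SD between probe sets of the same gene was 0.18 log2 over 701 genes with several. Genes at the threshold differed by less than that: Aqp7 (1.02) and Myl9 (-1.01) were counted, while Zbp1 (0.999), a sensor of viral nucleic acid, and Cadps (-0.99) were not. At the floor, Hbq1b and Csrp3 entered with signals of at most 50.02 and 50.04, and Cnnm1 and Gsx1 stayed out at 49.99, with differences between -0.047 and 0.23.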

How the data were processed

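RNA from colon scrapings was hybridized to Affymetrix Mouse Gene 1.0 ST arrays, 1 pool and 1 array for each of 4 groups. The authors deposited log2 signals from Robust Multi-array Average (RMA), a method that corrects background, brings the arrays to 1 common distribution by quantiles and combines the probes of each set, so a shift shared by most genes cannot be seen. Its version and the genome build are not given in the sources used here. Rows of the table are transcript clusters of the manufacturer, although the methods name an Entrez-based grouping of the probes. Of 35556 rows 21789 had 1 gene symbol in the platform annotation, 1621 several and 12146 none; the Entrez identifiers of 21698 of the 21789 were found in RefSeq GRCm38.p6 and those of 91 were not.

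Log2 differences, old minus young on the high-fat diet, were computed with Python 3.11.15 and pandas 2.3.3. The 13633 probe sets of 1 symbol with a linear signal above 50 on either high-fat array were kept, and the probe set with the highest mean stood for each gene. The threshold of 2.0-fold is that of the study, which also removed pancreas genes; these were kept here, and none was over 2.0-fold. With 1 pool per group no test was made. The number of arrays limits the precision. The procedures were tested on simulated data.

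The members and the 47 gene lists (1161 genes, 1028 measured, 816 above the floor) were chosen with earlier results of these data known, so the direction of a list is not independent evidence. Genes were named by rule: the 25 highest and 20 lowest over 2.0-fold, in each list up to 4 members with the widest difference and any over 2.0-fold, 2 genes on each side of the floor, genes whose probe sets disagree, and up to 10 each way with the widest gap between diets. Alternatives were other floors, fold thresholds, centring, an intensity trend (lowess fraction 0.3, statsmodels 0.14.6), other probe set rules, other young arrays, and gene classes left out. Some genes of the platform were not analysed here.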

Additional observations from a re-analysis of the deposited data

Results flagged for a closer look

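For 5 genes over 2.0-fold on the high-fat diet the age difference pointed the opposite way by over 1.5-fold on the low-fat diet; with 1 array per group this contrast between the diets was not tested. The gap between the age differences on the high-fat and the low-fat diet was 1.97 log2 for Lpl (1.39 and -0.59) and 1.80 for Tsr3 (1.08 and -0.73). It was -1.69 for Mir687 (-1.08 and 0.61), -1.95 for Gpr21 (-1.14 and 0.81) and -1.91 for Mir151 (-1.26 and 0.65). The last 3 had signals below 50 on at least 1 high-fat array, so their values are not exact.

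Probe sets outside the gene counts also differed between the old and young high-fat arrays. Of 6686 without a gene and above the floor, 0.853% were over 2.0-fold higher and 5.85% over 2.0-fold lower on the old array, with a median difference of -0.13, against 0.499% and 0.169% of the 13633 probe sets with 1 gene. Of 910 probe sets with several genes 2.97% were over 2.0-fold higher and 0 lower, and none of these was named.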

How the results depend on the processing

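No paired analysis was possible because each group had 1 array. Median centring, an intensity trend, the probe set rule, a floor of 20 or none, and pancreatic genes left out kept the counts within 1.5 times 62 higher and 22 lower genes. At 1.5-fold there were 307 higher and 122 lower, at 3.0-fold 14 and 3. The lower count depended on the young array, with 5 genes when the mean of both young arrays was the reference (all among the 22) and 7 when the young low-fat array was (2 among the 22), and it was 14 without the lists of other tissues. Against the same 2 young references 53 and 57 genes were higher, of which 47 and 40 were among the 62. The smooth muscle median of -0.53 became -0.24 against the mean of both young arrays, -0.020 against the young low-fat array and -0.81 at a floor of 100. Cnn1 (0.090), Des (0.083), Myh11 (0.076) and Tagln (0.19) reversed against the young low-fat array. The fat cell median of 0.95 became 0.58 against the young low-fat array and 1.26 at a floor of 100. The MHC class II median of 0.96 became 1.48 at a floor of 100 and 1.46 with a signal over 50 on both arrays, where fewer members were left. The median of the interferon-stimulated genes stayed between 0.84 and 0.99. Signals near the floor of 50 limit the folds of 22 of the 84 genes. Causes were not tested.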

Other observations

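Just below 2.0-fold stood further genes of leukocytes that were in none of the lists. Laptm5, a lysosomal protein of blood cells, had signals of 217 and 424 in young and old low-fat and 206 and 398 in young and old high-fat colon (0.95 log2 higher on the high-fat diet). Il7r, the interleukin-7 receptor of lymphocytes, was 0.94 higher, the lymphocyte GTPases Gimap6 and Gimap4 0.89 and 0.75, and Ptprc, the pan-leukocyte marker CD45, 0.82. Eno3, an enolase, was 0.99 and Hk2, a hexokinase, 0.95 higher on the high-fat diet, against -0.075 and -0.15 on the low-fat diet, and both had their lowest signal on the young high-fat array. Lower on both diets were Cadps (-0.99 on the high-fat and -0.73 on the low-fat diet), the glutamate receptor subunit Grin3a (-0.96 and -0.76) and Pex5l (-0.91 and -0.74). Homer2 was 0.98 lower on the high-fat and 0.54 higher on the low-fat diet. The ribosomal protein copy Rps4l was 0.89 lower on the high-fat and 1.12 log2 lower on the low-fat diet. These genes were chosen after their values were seen.

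Some genes have probe sets that differ widely among themselves. Of 60 probe sets of Hmcn1, a large matrix protein, 59 were higher on the old high-fat array, with a median of 0.44 and a range from -0.027 to 1.14. All 14 probe sets of Nlrc5, the transactivator of MHC class I genes, were higher, with a median of 0.31, while the brightest, which stood for the gene in the counts, differed by 0.034 and another by 1.62. The 3 probe sets of Ighm, the constant region of immunoglobulin M, were 0.056 to 1.15 higher. The 8 probe sets of Adgrl2 were lower, from -0.073 to -1.08. For Kcnma1 1 probe set was 0.41 lower and another 1.93 higher, the latter with signals of 18.6 and 112 in young and old low-fat and 24.2 and 91.8 in young and old high-fat colon.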
